A study of Schizosaccharomyces pombe with 3 samples.

Results

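Of 1530 intergenic features measured on all 3 arrays, 238 (15.6%) were high on every array in a chromatin immunoprecipitation of Tup11-GFP, and these 238 regions are described here. They were chosen by their ratio of precipitate over input: the percentile rank of the ratio among all yeast features of an array had to be 80 or more on each of the 3 arrays. Their height on the arrays is therefore the choice itself and is given as a description, with no test. The array carries 5169 intergenic features, and those without an accepted spot on each array are not among the 1530. Each feature was read as the gap upstream of the gene it is named for, from its coding sequence to the next coding, tRNA, rRNA or snoRNA gene, and 215 of the 238 were placed in 195 such gaps of the reference genome.

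Chromatin came from Schizosaccharomyces pombe cells with Tup11-GFP, taken in mid-log growth in YES, a rich medium, and was precipitated with an antibody against GFP. Precipitated and input DNA were amplified and hybridised together on two-colour arrays spotted with PCR products of open reading frames (ORFs) and intergenic regions. All 3 arrays belong to 1 group: replicates 1 and 2 carry the slide code E120D and replicate 3 the code F060D, whose deposited values stand in a table of another array platform. No untagged strain, other medium or other genotype was analysed here, so Tup11 binding, background of the precipitation and effects of the tag cannot be told apart.

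Tup11 is a WD-repeat corepressor of fission yeast, the counterpart of Tup1 of budding yeast, and acts with its paralogue Tup12 and with Ssn6. Such corepressors bind no DNA themselves: sequence-specific factors such as the iron regulator Fep1, a GATA factor, or the glucose repressor Scr1, a zinc finger protein, bring them to promoters. Known targets include genes of iron uptake and the gluconeogenic gene fbp1.

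The regions of genes under such factors are the ones for which the sequence helps a reader, so the 250 bases before the annotated mRNA start are shown for genes of the iron, glucose-repressed and stress lists. Shown are those whose window lies outside every annotated mRNA, tRNA and rRNA gene and holds the letters searched for, on either strand. The sequences are of the RefSeq reference, build ASM294v3, and read 5′ to 3′ on the strand of the gene. In the first 4, of iron genes, capitals mark TGATAA or AGATAA, the core read by GATA factors, or the same letters on the other strand (TTATCA or TTATCT). They are fio1 at chrI:4234822-4235071 on the plus strand, abc3 at chrII:122392-122641 on the plus strand, frp1 at chrII:162393-162642 on the minus strand and str2 at chrIII:1442016-1442265 on the minus strand. The fio1 window lies in the gap that fio1, a ferroxidase gene, shares with fip1, an iron permease gene, and the window of fip1 covers nearly the same bases.
fio1: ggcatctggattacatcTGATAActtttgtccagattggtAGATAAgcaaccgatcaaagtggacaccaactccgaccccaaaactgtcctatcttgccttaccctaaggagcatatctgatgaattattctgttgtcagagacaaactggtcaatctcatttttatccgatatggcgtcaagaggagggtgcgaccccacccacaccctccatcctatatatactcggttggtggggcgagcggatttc
abc3: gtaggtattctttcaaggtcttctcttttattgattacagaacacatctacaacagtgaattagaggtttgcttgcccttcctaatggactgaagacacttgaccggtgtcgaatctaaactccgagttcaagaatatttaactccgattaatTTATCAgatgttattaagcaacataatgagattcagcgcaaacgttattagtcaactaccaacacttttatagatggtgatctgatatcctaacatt
frp1: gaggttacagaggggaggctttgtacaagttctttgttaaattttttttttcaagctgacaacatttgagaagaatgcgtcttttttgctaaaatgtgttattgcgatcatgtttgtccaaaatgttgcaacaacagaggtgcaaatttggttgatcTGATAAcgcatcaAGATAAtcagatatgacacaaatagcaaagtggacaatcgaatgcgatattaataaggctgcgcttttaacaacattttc
str2: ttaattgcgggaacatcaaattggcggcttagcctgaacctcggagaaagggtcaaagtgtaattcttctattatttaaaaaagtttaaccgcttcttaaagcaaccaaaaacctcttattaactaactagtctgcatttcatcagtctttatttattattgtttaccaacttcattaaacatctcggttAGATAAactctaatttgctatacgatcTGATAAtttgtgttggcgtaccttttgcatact

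In the next 2, of glucose-repressed genes, capitals mark CCCCAC, the core of the Scr1 site, or CCCCTC, the stress element read by the activator Rst2. They are gto1, an alpha-glucosidase gene, at chrI:5474946-5475195 on the minus strand and gal7, a gene of galactose use, at chrII:4483694-4483943 on the minus strand. In the last, of gpd1 at chrII:4035316-4035565 on the plus strand, capitals mark TGACGT, the core read by the stress factor Atf1.
gto1: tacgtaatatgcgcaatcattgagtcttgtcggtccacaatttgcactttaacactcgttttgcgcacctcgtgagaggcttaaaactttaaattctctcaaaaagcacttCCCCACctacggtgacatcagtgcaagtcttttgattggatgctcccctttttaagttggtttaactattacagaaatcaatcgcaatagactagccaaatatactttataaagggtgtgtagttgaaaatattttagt
gal7: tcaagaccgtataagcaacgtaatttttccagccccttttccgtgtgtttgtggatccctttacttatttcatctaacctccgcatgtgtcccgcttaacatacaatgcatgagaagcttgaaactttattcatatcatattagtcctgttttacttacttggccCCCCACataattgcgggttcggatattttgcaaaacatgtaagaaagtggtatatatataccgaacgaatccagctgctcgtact
gpd1: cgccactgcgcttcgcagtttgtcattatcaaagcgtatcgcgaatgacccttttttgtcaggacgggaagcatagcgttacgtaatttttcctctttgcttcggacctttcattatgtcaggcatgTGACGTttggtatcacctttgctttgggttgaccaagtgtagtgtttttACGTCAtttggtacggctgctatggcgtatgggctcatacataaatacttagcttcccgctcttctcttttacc

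Among the iron genes with a high region, 5 of 8 such windows held TGATAA or AGATAA, against 40.3% of the 2870 windows of the genome that meet the same conditions. The windows of sib1, sib2 and str1 held neither. For the glucose-repressed genes 2 of 4 windows held CCCCAC or CCCCTC, against 5.02% of windows, and those of gal10 and fbp1 held neither. For the stress genes 1 of 11 held TGACGT, against 5.40%. Over the whole gap the letters stood in 10 of 10 iron genes, 6 of 8 glucose-repressed genes and 4 of 13 stress genes, against 79.5%, 21.9% and 19.8% of all 1174 measured gaps. The 10 iron genes stand at 8 gaps, since fio1 shares its gap with fip1 and sib1 with sib2. The nearly equal windows of fio1 and fip1 both count among the 5. Long gaps hold more letters, and these shares are not corrected for length. A match is a run of letters and not a bound site.

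The same letters, and others, were counted over the high regions as a whole. In windows from 250 bases before to 50 after the gene start, TGATAA stood in 59 of 215 high regions (27.4%), in 27.6% of 1139 other measured regions and in 26.8% of all 5112 genes. CCAAT, the box of the Php complex, stood in 45.1%, 45.9% and 42.2%, and CAGTCACA, the HomolD box of ribosomal protein genes, in 3.72%, 4.13% and 2.68%. CCCCTC stood in 11 high regions (5.12%), against 2.72% and 2.11%, CACGTG in 7 (3.26%) against 1.32% and 1.49%, and TGACGT in 22 (10.2%) against 7.20% and 5.91%. The counts behind the last 3 are small. Over whole gaps, which are longer for the high regions, TGATAA stood in 74.9% of their 195 gaps and 60.5% of the others. Per kb of gap it stood 1.12 and 1.06 times, and none of these differences was tested.

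The values of the arrays are log2 ratios of precipitate over input, centred so that 0 is the median of the yeast features of that array. They are given for replicates 1, 2 and 3 in that order, with the mean ± SD over the 3 arrays (n = 3) where one is quoted. The files do not say which channel is which dye, and in the same channel letters replicate 3 correlated with replicates 1 and 2 at r = -0.54 and -0.40 over 7721 and 4345 features, against 0.73 between replicates 1 and 2. The direction is therefore likely and not certain. It rests on the deposited value tables, whose values followed 1 channel of each array more closely (r = 0.64, 0.43 and 0.97, against 0.23, -0.03 and 0.78 for the other) once their ORF and intergenic names were exchanged, and that channel was read as the precipitate. Names were kept as in the scanner tables, where control spots of the Ef1-b ORF had -0.55, -0.77 and 0.71, close to the ORF feature ef1-b (-0.56, -0.96 and 0.52) and far from the region ef1-b (3.31, 1.70 and 3.61). Read this way, the value tables gave the 238 regions medians of 0.62, 0.348 and 0.68 and the other measured regions 0.18, 0.225 and 0.205, on a scale that is not stated. If the letters meant the same on all arrays, every value of replicate 3 below would change its sign, and 2 regions, SPAC17C9.08 and SPBC1709.03, neither of them among the 238, would reach rank 80 on every array. With all 3 arrays turned, the 24 regions at rank 20 or less on every array would take their place.

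The 238 regions reached a median log2 ratio of 1.54, 1.38 and 1.77, where rank 80 stood at 0.85, 0.72 and 0.45. Their means ran from 0.70 ± 0.23 to 3.29 ± 0.98, with 117 regions at rank 90 or more and 59 at rank 95 or more on every array. The 15 highest, from pgk1, the phosphoglycerate kinase gene, to cta3, a cation pump gene of the salt response, are named below only beside the 223 that follow them. Replicate 3 gave the highest value of 141 regions, replicate 1 of 50 and replicate 2 of 47, and the lowest rank fell on replicate 2 for 111.

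**Figure D1:**
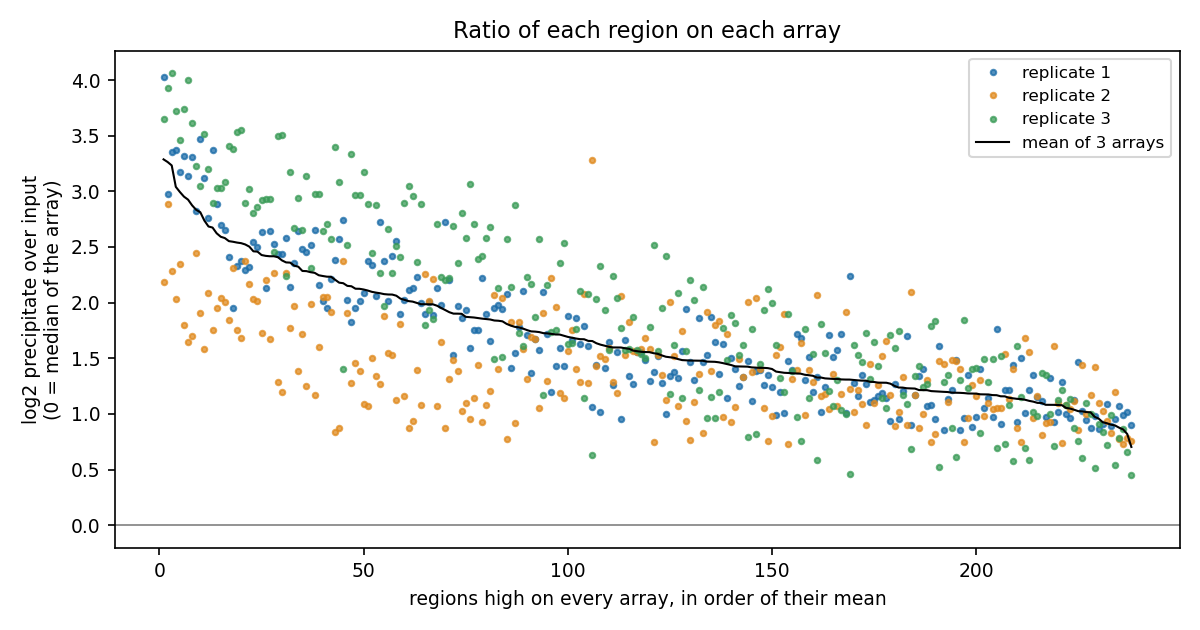
Log2 ratio of precipitate over input (vertical axis, 0 is the median of the array) of the 238 regions in order of their mean (horizontal axis), with 1 point for each array and the mean as a line. Among the highest means replicate 3 lies mostly above the line and replicate 2 mostly below it, and zip1 on replicate 2 (3.28) stands far above its other values.

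Replicate 2 had the fewest accepted intergenic features, 1590 against 3513 and 4977, and without it 691 of 3497 regions measured on both other arrays would meet the rule. The signal behind the ratio differed by array too. Precipitate signal stood at median percentile ranks of 90.5, 76.4 and 94.4 in the 238 regions, and at 63.6, 50 and 68.7 in the other measured regions. Input signal stood at 30.1, 12.9 and 47.8 in the 238 and at 59.3, 36.7 and 64.5 in the others. On replicate 2, 153 of the 238 (64.3%) lay in the lowest 20% of input signal, against 29.0% of the others, and on replicate 3 only 26 did (10.9% against 3.41%). A dim input spot raises a ratio as a bright precipitate spot does, and its part in the choice was not tested beyond the setting without dim spots, under which 169 of 1120 regions met the rule and 117 of them were among the 238.

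The choice was also made on 2 arrays at a time and read on the array left out. In each case the regions that reach rank 80 there too are the 238 themselves. Regions at rank 80 or more on replicates 2 and 3 numbered 330, and 238 of them (72.1%) reached rank 80 on replicate 1, against 12.6% of the 1200 other measured regions. For replicate 2 left out the shares were 72.1% of 330 and 27.2% of 1200, and for replicate 3 left out 83.2% of 286 and 33.0% of 1244. The median rank on the array left out was higher by 43.0, 25.5 and 31.9 for the chosen regions, a mean of 33.5 ± 8.86 (exact sign-flip test over 3 arrays, two-sided p = 0.25, the smallest that 3 arrays allow, so that no outcome could have passed a threshold of 0.05). With the same letters for replicate 3 the differences were -0.57, 11.7 and -31.9, a mean of -6.93 ± 22.5.

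The edge of the choice is not a natural gap. Just inside it lay rpl1001, a gene of the large ribosomal subunit, with a lowest rank of 80.1, pap1, an oxidative stress factor, with 80.1, and wtf13, a meiotic drive gene, with 80.2. Just outside lay the regions of atg15 with 79.8, ipk1 with 79.8 and mlo1 with 79.6.

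Regions of sugar metabolism genes were many. Glycolysis and fermentation genes had 13 of 17 measured features among the 238, glucose-repressed and gluconeogenic genes 11 of 17 and hexose and gluconate transporter genes 4 of 7, where 15.6% of all measured intergenic features are members. The medians of all measured features of these lists were 1.62, 1.86 and 1.33, against 0.32 for all measured intergenic features. A feature counts for a list when the gene it is named for, or the other gene of a divergent gap, is on the list, so features of 1 gap count apart, and the lists were drawn up with results of these arrays known. In all, 76 of 186 measured features of the lists were members, and 138 features would be without replicate 2, when more features are measured. The transporter list then has 7 of 11. Without dim spots the glycolysis, glucose-repressed and transporter lists have 10 of 12, 7 of 13 and 2 of 4, where 15.1% of all measured regions met the rule. With ranks among intergenic features only, the glycolysis list has 6 of 17. The share of all measured intergenic features is then 8.17%, in place of 15.6%. It is 21.6%, 19.8% and 18.9% without replicate 1, 2 and 3, and the list counts below stand beside these shares too.

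The gap of pdc101, pyruvate decarboxylase of fermentation, and the uncharacterized gene SPAC1F8.08 held 3 features, each high on every array (chromosome I, 103545 to 103940). The pdc101 feature had 2.33, 1.75 and 3.54 (2.54 ± 0.91). The long feature named for SPAC1F8.08 had 2.65, 1.17 and 2.98, and its other feature 1.83, 1.27 and 3.34. Replicate 3 gave the highest and replicate 2 the lowest value of all 3 features.

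Upstream of gpd3, the glyceraldehyde-3-phosphate dehydrogenase gene, the values were 2.46, 1.25 and 3.14 (2.28 ± 0.96). The feature eno1, whose name found no match in the reference, had 2.44, 1.29 and 3.50 (2.41 ± 1.10). Both were lowest on replicate 2, and the spread of eno1 was among the widest. The other glycolytic regions lay lower. They were the gap of mug114 and hxk2, hexokinase (1.97 ± 0.83), gpm1, phosphoglycerate mutase (1.85 ± 0.75), pfk1, phosphofructokinase (1.78 ± 1.00), pyk1, pyruvate kinase (1.62 ± 0.66), and hxk1, also a hexokinase gene (1.60 ± 0.43). They ended with fba1, aldolase (1.55 ± 0.90), tpi1, triosephosphate isomerase (1.37 ± 0.59), and the gap of SPAC186.08c and pdc102 (1.18 ± 0.22). The tpi1 feature lies near the edge, with a lowest rank of 80.3.

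Of the glucose-repressed genes, the gap of wwm3 and fbp1, fructose-1,6-bisphosphatase of gluconeogenesis, had 2.32, 2.17 and 3.02 at the feature named for wwm3 (chromosome II, 199143 to 202535). Upstream of dak2, a dihydroxyacetone kinase gene of glycerol use, the values were 2.53, 2.27 and 2.45. Its SD of 0.13 was the narrowest among the 30 regions that follow the 15 highest. On replicates 1 and 2 the input signal of dak2 stood at percentile ranks of 7.11 and 1.40, and its precipitate signal at 88.1 and 77.3. The gap of gto1 and SPAC922.03, annotated as a 1-aminocyclopropane-1-carboxylate deaminase gene, had 2.52, 1.99 and 2.31 at the SPAC922.03 feature. Replicates differed by less than 1 unit within each of these regions.

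The gap between gal7, galactose-1-phosphate uridylyltransferase, and tgd1 had 2.64, 1.38 and 2.94 at the gal7 feature and 2.37, 1.07 and 2.88 at the tgd1 feature. Both were lowest on replicate 2. Upstream of ght3, a gluconate transporter gene, the values were 2.23, 1.40 and 2.36, and upstream of agl1, a maltase gene, 2.08, 0.78 and 2.57. The glucose and fructose transporter gene ght6 had 1.41, 1.82 and 2.14, with 1.75, 1.44 and 2.39 at the feature of its neighbour mug146, and the high-affinity glucose transporter gene ght5 had 1.50, 0.75 and 1.15. All of these values lie above the array medians, and the lowest ranks of agl1 and ght5 were 81.9 and 80.8.

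**Figure D2:**
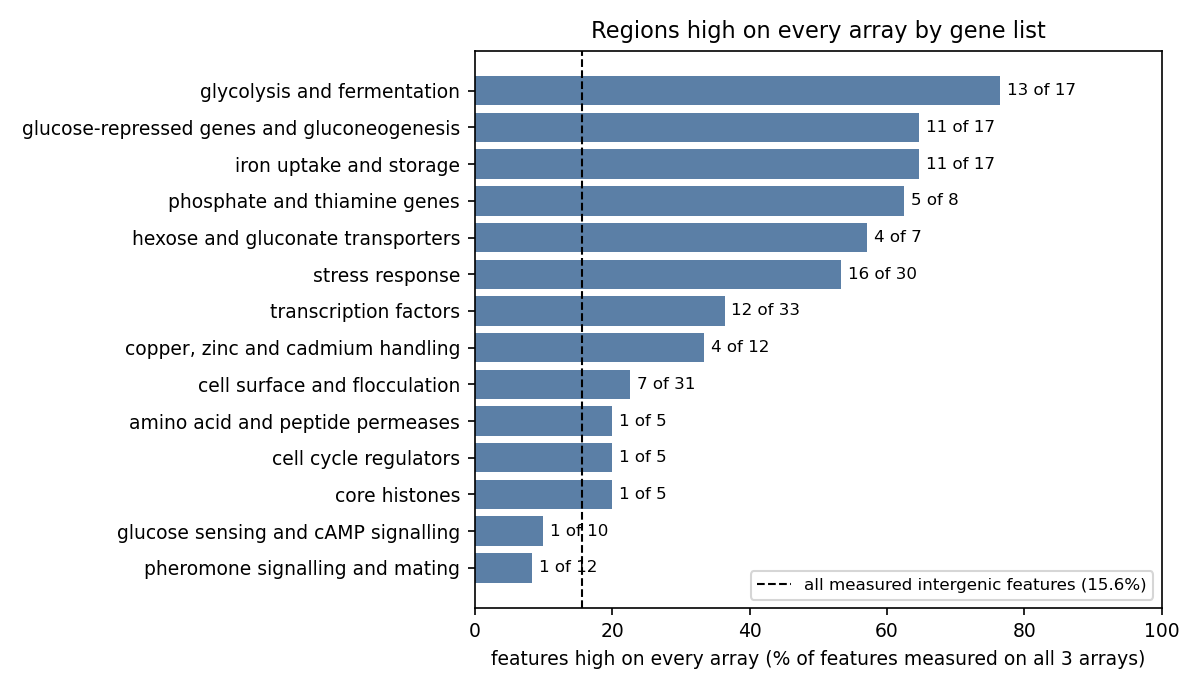
Share of the measured features of each gene list with at least 5 of them that were high on every array (bars, in percent), with the counts beside the bars and the share of all measured intergenic features, 15.6%, as a dashed line. Glycolysis (13 of 17) and the glucose-repressed and iron lists (11 of 17 each) stand highest. The glucose sensing list (1 of 10) and the pheromone list (1 of 12) lie below the line. Without replicate 1 the pheromone list (3 of 12) was above the 21.6% of all measured regions. Without replicate 2 the glucose sensing list (4 of 19) and the pheromone list (8 of 29) were above the 19.8% of all.

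Iron genes beyond fio1, fip1 and shu1 spread over the whole range of the list, in which 11 of 17 measured features were members, with a median of 1.59 over the 17. Upstream of abc3, a vacuolar ABC transporter gene induced in low iron, the values were 2.66, 2.00 and 3.08 (2.58 ± 0.54, chromosome II, 119329 to 122746). Upstream of frp1, the ferric reductase gene, they were 2.54, 2.03 and 2.81 (2.46 ± 0.39, chromosome II, 162156 to 164429). Their lowest ranks on any array were 98.9 and 99. On replicate 2 these ranks went with dim input spots. Input signal stood there at percentile ranks of 2.96 for abc3 and 0.207 for frp1, and precipitate signal at 77.1 and 14.97. Without dim spots the iron list had 6 of 11 measured features, where 15.1% of all measured regions met the rule. The gap of str2, a siderophore transporter gene, and spt3, a gene of the SAGA complex, had 2.02, 1.16 and 2.89 at the str2 feature and 2.72, 1.27 and 2.27 at the spt3 feature. The gap of sib1 and sib2, the pair of genes for synthesis of ferrichrome, had 1.66, 1.75 and 1.64 and 1.11, 1.45 and 1.31. Upstream of frp2, another ferric reductase gene, the values were 1.67, 1.53 and 1.58. The arrays lay close together at sib1 and frp2 and far apart at str2. Upstream of str1, also a siderophore transporter gene, the values were 1.50, 0.92 and 1.89. The long feature of the fio1 gap had 0.83, 1.23 and 0.97 and missed rank 80 on replicate 1.

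Genes of other metals had 4 of 12 measured features among the 238, 2 of 12 with ranks among intergenic features only and 7 of 18 without replicate 2. The gap of mug24 and hmt1, a vacuolar transporter gene of cadmium resistance, split: the mug24 feature was among the 15 highest, and the hmt1 feature had 0.95, 1.00 and 1.10. Upstream of fet4, annotated as an iron and zinc transporter gene, the values were 1.86, 1.36 and 1.21. The gap of SPAC683.03 and loz1, the zinc repressor gene, had 2.09, 1.09 and 3.18 at the SPAC683.03 feature and 0.40, -0.18 and 0.77 at the loz1 feature, which reached rank 80 on replicate 3 only.

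Stress response genes had 16 of 30 measured features among the 238, in 13 gaps, with a median of 1.23 over the 30. The list had 9 of 30 with ranks among intergenic features only and 29 of 50 without replicate 2. Upstream of gpd1, the glycerol-3-phosphate dehydrogenase gene of the osmotic response, the values were 2.13, 2.20 and 2.93 (2.42 ± 0.44). Another feature named for gpd1 had 1.23, 0.52 and 1.88 and was not among the 238. The gap of psk1, a kinase gene, and phf1, a PHD finger gene, had 1.95, 2.31 and 3.38 at the phf1 feature. On replicate 2 input signal stood at percentile ranks of 0.999 for the higher gpd1 feature and 1.58 for phf1, and precipitate signal at 70.2 and 79.9. In the gap of ssa1, an Hsp70 chaperone gene, and upf3 the values were 2.38, 0.84 and 3.40 at the ssa1 feature and 2.06, 1.34 and 2.88 at the upf3 feature. The spread of ssa1 (2.21 ± 1.29) was the second widest of the 238. Upstream of zwf1, glucose-6-phosphate dehydrogenase, the values were 2.02, 1.39 and 2.97, and upstream of srx1, sulfiredoxin, 1.67, 1.68 and 1.87. The region of sty1, the stress MAP kinase gene, had 1.72, 1.29 and 2.16, and the gap of its activator gene wis1 had 1.34, 0.87 and 1.43 at the feature of SPBC409.08. The feature named for wis1 itself had 0.43, 0.64 and 0.02 and was not among the 238.

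Genes of transcription factors had 12 of 33 measured features among the 238, 6 of 33 with ranks among intergenic features only and 20 of 62 without replicate 2. The gap of clg1, a cyclin gene, and scr1, the glucose repressor gene, spans 6162 bp and had 2.58, 2.26 and 2.24 at the clg1 feature (2.36 ± 0.19). Upstream of rsv2, a zinc finger factor gene, the values were 1.95, 1.46 and 2.97, and at the other feature of that gap, SPBC1105.13c, 1.66, 1.21 and 2.68. The gap of pho7, the phosphate response factor gene, and cbp4 had 1.90, 1.80 and 2.41 at the cbp4 feature and 1.41, 1.06 and 1.82 at the pho7 feature. Factors of the stress response followed, with prr1 at 1.68 ± 0.24, atf21 at 1.32 ± 0.35 and pap1 at 1.20 ± 0.30. The region of zip1, a bZIP factor gene, had 1.06, 3.28 and 0.63, and its SD of 1.42 was the widest of the 238. Its height rests on replicate 2, where its precipitate and input ranks were 100 and 76.3.

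Phosphate and thiamine genes had 5 of 8 among the 238, and 1 of 8 with ranks among intergenic features only. They were both features of the pho7 gap, the phosphate transporter gene pho842 (1.87 ± 0.74) and the acid phosphatase genes pho1 (1.41 ± 0.46) and pho4 (1.14 ± 0.49). Cell surface genes had 7 of 31, and 15 of 45 without replicate 2. Without dim spots they had 4 of 21, where 15.1% of all measured regions met the rule. The SPAC1002.20 feature, in the gap that this gene shares with psu1, a cell wall gene, was the highest of them, with 3.26 ± 0.58. It was followed by the abc3 feature, whose gap ends at the flocculin-like gene pfl7. Neither measured feature named for pfl7 was itself among the 238. Next came the psu1 feature itself (2.14, 1.77 and 3.17), with input and precipitate ranks of 1.56 and 45.9 on replicate 2. After it stood gas1, a glucanosyltransferase gene (1.84 ± 0.39), down to ecm33, a cell wall protein gene (1.01 ± 0.15). Lists with 1 member were glucose sensing (1 of 10, the scr1 gap), pheromone and mating genes (1 of 12, map2 at 2.06 ± 0.81), permeases (1 of 5, isp5 at 2.07 ± 0.56), cell cycle regulators (1 of 5, wee1 at 1.48 ± 0.51) and core histones (1 of 5, hht3 at 0.92 ± 0.09). The list of elongation factors had 1 measured feature, in the tef103 gap among the 15 highest. Without replicate 2 the pheromone list had 8 of 29, the glucose sensing list 4 of 19, the permeases 5 of 13, the cell cycle list 4 of 17, the histones 3 of 8 and the elongation factors 3 of 6. Without replicate 1 the pheromone list had 3 of 12 and the histones 3 of 5, and without replicate 3 the cell cycle list had 2 of 5.

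Annotated products of the named gene gave a coarser view of all measured features. Of 112 features of membrane transport genes 29 were members (25.9%), of 85 of oxidoreductase genes 21 (24.7%) and of 41 of DNA-binding factor genes 11 (26.8%). Ribosomal protein genes had 6 of 74 (8.11%), genes of RNA polymerase and RNA processing 4 of 61 (6.56%), chaperone genes 1 of 16 (6.25%) and kinase and phosphatase genes 5 of 48 (10.4%). Genes with no characterised product had 17 of 103 (16.5%), near the 15.6% of all. The rpl2501 region was the highest of the ribosomal protein genes, with 1.78, 1.83 and 1.73.

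Of the 238 regions, 158 lay outside the 15 highest and outside every gene list. Those of them among the 30 that follow the 15 highest belong to varied functions. The feature named for prt2, which was not placed in a gap, had 2.41, 1.84 and 3.41. The reference describes prt2 as a long non-coding RNA gene that is regulatory in cis and represses pho84. Upstream of SPCC576.17c, annotated as a transporter of vitamin B6 compounds, the values were 2.37, 1.68 and 3.56. Those upstream of dug1, a dipeptidase gene, were 2.29, 2.37 and 2.90. Replicate 3 was highest in each of them. The rmp1 feature, in the gap that this gene of the ribonuclease MRP shares with SPAC323.07c, had 2.50, 2.02 and 2.86. Upstream of cfh2, a gene of chitin synthase regulation, the values were 2.63, 1.73 and 2.92, and upstream of bpb1, a splicing factor gene, 2.64, 1.68 and 2.93.

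Upstream of gdh1, glutamate dehydrogenase of ammonium assimilation, the values were 2.44, 1.20 and 3.50, and upstream of sua1, sulfate adenylyltransferase of sulfur assimilation, 2.57, 0.88 and 3.09. Both had a low value on replicate 2 and SDs above 1. The gap of ppk33, a kinase gene, and hmg1, the HMG-CoA reductase gene of sterol synthesis, had 2.35, 1.97 and 2.67 at the ppk33 feature. The gap of urg2 and urg3, genes regulated by uracil, had 2.49, 1.72 and 2.65 at the urg2 feature, next to the high region of tna1. Both lay far above the threshold, with lowest ranks of 98.8 and 97.6.

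Upstream of mug153 the values were 2.16, 1.61 and 2.98, and upstream of SPAC25B8.12c, annotated as a nucleotide-sugar phosphatase, 2.02, 2.06 and 2.64. The gap of mto2, a microtubule organisation gene, and idh2, an isocitrate dehydrogenase subunit gene, had 1.95, 2.05 and 2.70 at the mto2 feature and 0.95, 0.82 and 1.84 at the idh2 feature. Upstream of ptc2, a protein phosphatase gene, the values were 2.22, 1.91 and 2.57. The pdf1 region, of a thioesterase gene, had 2.74, 2.37 and 1.41, with replicate 3 lowest.

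The narrowest spreads over the arrays belonged to hca4, an RNA helicase gene, with 1.56, 1.56 and 1.57, ani2, a peptidyl-prolyl isomerase gene, with 1.56, 1.58 and 1.54, and fyu1, a UTP-glucose-1-phosphate uridylyltransferase gene, with 1.52, 1.53 and 1.57. The widest belonged to zip1, ssa1 and mug24. The median SD of the 238 was 0.41, and repeat spots of 1 region on 1 array had median SDs of 0.11, 0.12 and 0.05, so the arrays differed more than the spots did.

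The ORF next to a high region was seldom high. The ORF of the named gene was measured on all arrays for 146 of the 238 regions, and 11 of these (7.53%) had an ORF that was high on every array, against 10 of 699 (1.43%) for other measured regions and 1.11% of all 2701 measured ORF features. The region lay above its ORF on every array in 132 of the 146 and below it on every array in 0, a difference that the choice of high regions partly fixes. Median ORF values were -0.17, 0.04 and 0.32 next to the 238 regions and -0.80, -0.31 and -0.04 next to other regions. The difference of 0.63, 0.35 and 0.36 had a mean of 0.45 ± 0.16 (exact sign-flip p = 0.25, two-sided, the smallest that 3 arrays allow), and 0.21 ± 0.51 with the same letters for replicate 3. This comparison was added after the values were seen. It reads the same ratio on the same arrays as the choice of the regions, so no conclusion is drawn from it. The count of 11 rests on the choice of arrays. It was 22 among 342 high regions of 1581 measured without replicate 1. Without replicate 2 it was 82 among 691 of 3497. How many of those regions had a measured ORF was not counted, so no share of ORFs stands beside these counts.

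**Figure D3:**
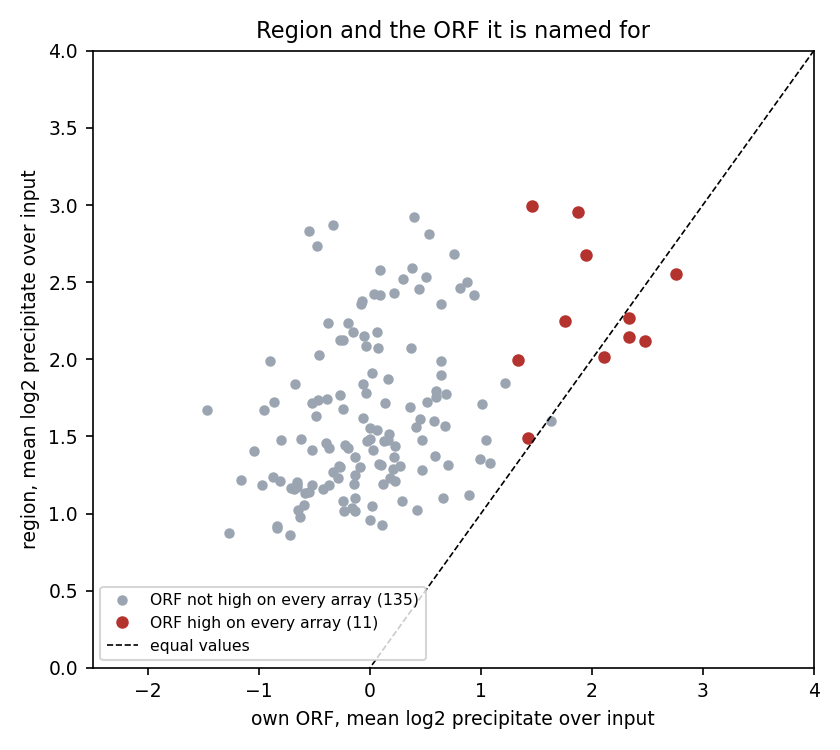
Mean log2 ratio of the 146 regions with a measured ORF (vertical axis) against that of the ORF they are named for (horizontal axis), with equal values as a dashed line. The 11 points with an ORF high on every array (red) have ORF means between 1.33 and 2.76, and 5 of them stand right of the line, where the ORF exceeds the region.

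Some of the high ORFs are short. The ORF of SPAC683.03 had 2.44, 1.91 and 3.09 over a coding sequence of 318 bp, SPAC9E9.01 2.27, 1.50 and 2.56 over 300 bp, SPAC1F8.08 2.21, 1.65 and 3.14 over 363 bp and mug153 1.45, 1.16 and 2.67 over 330 bp. Replicate 3 was highest and replicate 2 lowest in all of them, and SPAC1F8.08 counts for both of its own features. The feature of the non-coding prt2 gene itself had 2.75, 1.36 and 4.17, above the intergenic feature named for it on replicates 1 and 3. Longer coding sequences with a high ORF were fip1 (1.87 ± 0.28, 1194 bp), tna1 (1.94 ± 0.55, 1500 bp), ght3 (1.33 ± 0.46, 1668 bp) and shu1 (1.46 ± 0.34, 681 bp). The remaining one, SPBC1685.12c, found no match in the reference and had 1.42 ± 0.61 beside 1.49 ± 0.53 at its region. How far the PCR product of a region reaches towards an ORF is not given in the sources used here, and its part in these values was not tested.

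The ORF means of the 146 had a median of 0.01, and 72 of them lay below 0. Upstream of frp1 the region had 2.46 ± 0.39 and the ORF 0.82 ± 0.26. For abc3 these were 2.58 ± 0.54 and 0.09 ± 0.69, for gpd1 2.42 ± 0.44 and 0.04 ± 0.58, for gdh1 2.38 ± 1.15 and -0.07 ± 0.68, for clg1 2.36 ± 0.19 and -0.09 ± 0.73, and for sty1 1.72 ± 0.43 and -0.87 ± 0.81. In each pair the region exceeds the ORF by more than the SD of either. The dak2 ORF was higher, at 0.94 ± 0.55, and the ORF of str2 lower, at -0.46 ± 0.53.

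The ORF on the other side of the gap was counted by orientation. Where the neighbour is transcribed away from the gap (divergent), its ORF was high on every array for 3 of 68 high regions and 5 of 337 others. Where the gap follows the neighbour's end (tandem), this held for 5 of 37 and 3 of 245, and the orientations were not compared by a test. The 5 tandem cases were str3, a siderophore or haem transporter gene next to shu1, SPBC887.16 next to SPBC887.17, SPAPB1A10.13 next to pof15, SPCC191.06 next to cyc1 and rhp14 next to uvi15. The ORF of str3 had 2.55 ± 0.11, that of SPAPB1A10.13 2.80 ± 1.06, that of SPCC191.06 1.48 ± 0.65 and that of rhp14, a DNA repair gene, 1.16 ± 0.20. The ORF of SPBC887.16 had 3.29, 2.15 and 3.87, above the SPBC887.17 region on replicates 2 and 3 and above the sur2 region on every array. The divergent cases were fip1 at the fio1 feature, SPAC1F8.08 at the pdc101 feature and SPBC887.16 at the sur2 feature. SPBC887.16, with a coding sequence of 330 bp, lies between them, SPBC887.17 (2.81 ± 0.81) and sur2 (1.24 ± 0.08).

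Several features often stand for 1 gap, and they need not share its height. Of 215 gaps with at least 2 measured features, all features were members in 16, some in 44 and none in 155. The highest and lowest feature differed by a median of 0.38 where all were members and 1.03 where some were. Close pairs were psk1 with phf1, spt3 with str2 and trz1 with rtf2, whose means differed by less than 0.10.

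The 5 widest differences within a gap were all between a plain feature and one whose name begins with longIGR, a prefix that the sources used here do not explain. In the gap of abc3 and pfl7 the abc3 feature had 2.58 ± 0.54 and the long feature of pfl7 -0.38, -0.55 and 0.15. The plain feature of pfl7 in that gap was not among the 238 either, with -0.20, -0.50 and 0.65. In the gap of wwm3 and fbp1 the long feature of fbp1 had -1.12, 0.33 and -0.16. For ptc2, whose gap to a tRNA gene is only 554 bp long, the long feature had -0.69, -1.33 and 0.81. In the gap of prr1 and mrs3, a mitochondrial iron transporter gene, the long feature had -0.84, -0.91 and 0.39, and in the gas1 gap -0.58, -0.21 and 0.16. Long features were seldom members at all: 4 of 126 measured (3.17%), and 1 of 77 in gaps of at least 2000 bp, where plain features gave 60 of 239 (25.1%). Of 65 genes with both kinds measured, 13 had only the plain feature among the 238, 1 (ecm33) only the long one and 1 (SPAC1F8.08) both.

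**Figure D4:**
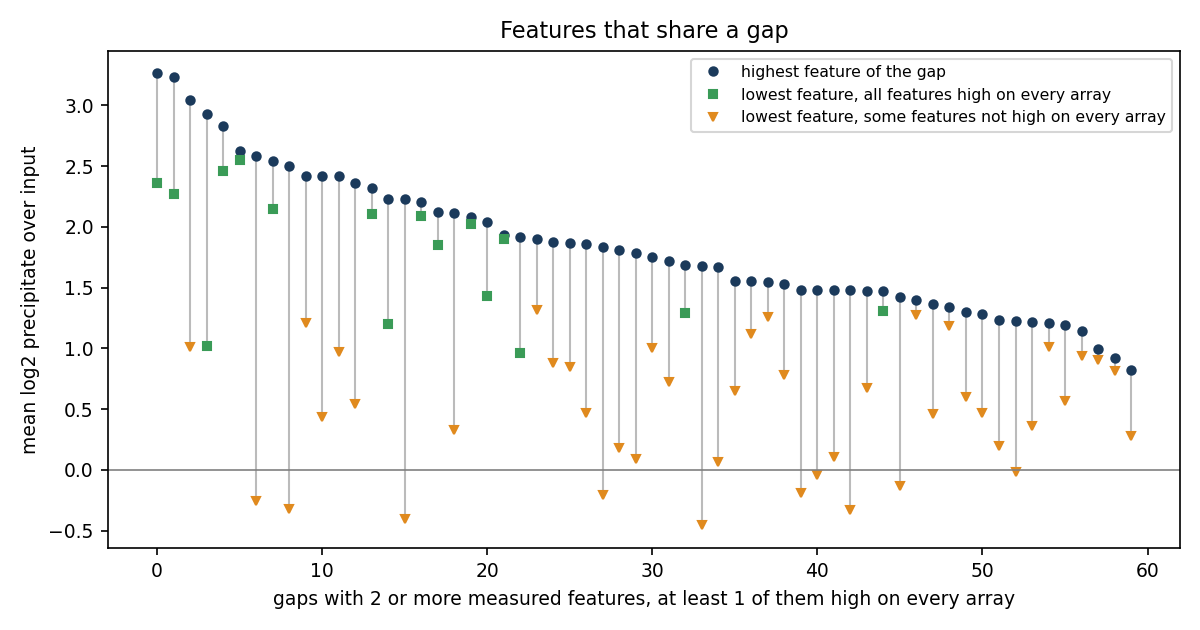
Mean log2 ratio (vertical axis) of the highest and the lowest measured feature of the 60 gaps (horizontal axis) with at least 2 measured features and at least 1 region high on every array. Where some features were not high on every array (triangles) the lowest feature reaches down to -0.46, and where all were (squares) it stays at 0.96 or more.

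The median gap was 1225 bp (quartiles 782 and 2106) for the 215 placed regions and 925 bp (quartiles 490.5 and 1787) for the other placed regions, a difference described and not tested. Of features in gaps under 500 bp 23 of 333 (6.91%) were members, of those from 500 to under 1000 bp 52 of 381 (13.6%), and of those from 1000 to under 2000 bp 79 of 380 (20.8%). In gaps from 2000 to under 4000 bp it was 47 of 234 (20.1%), and in longer gaps 14 of 82 (17.1%). Counted by gap, with several features of a gap taken as 1, the shares of the 5 classes were 7.19%, 13.7%, 21.7%, 24.2% and 26.9%. Short gaps with high regions include cyc1, cytochrome c (179 bp), yam8 (167 bp), SPCC553.12c (224 bp) and hht3 (237 bp).

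Divergent gaps had 139 of 832 features among the 238 (16.7%) and tandem gaps 76 of 578 (13.1%), so that 64.7% of the placed high regions and 59.0% of all placed regions lie between divergent genes. By length, the share was higher in divergent than in tandem gaps in each class but the one from 2000 to under 4000 bp, where 17.3% of divergent and 26.4% of tandem features were members. GC content was close, with medians of 33.2% for high and 32.4% for other regions. With the placed features cut into 5 equal parts by GC content, 12.1% of the part with the lowest GC content and 19.9% of the part with the highest were members. Where the gap ended at a tRNA gene, 9 of 47 features were members (19.1%), against 204 of 1341 (15.2%) at a protein-coding gene.

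**Figure D5:**
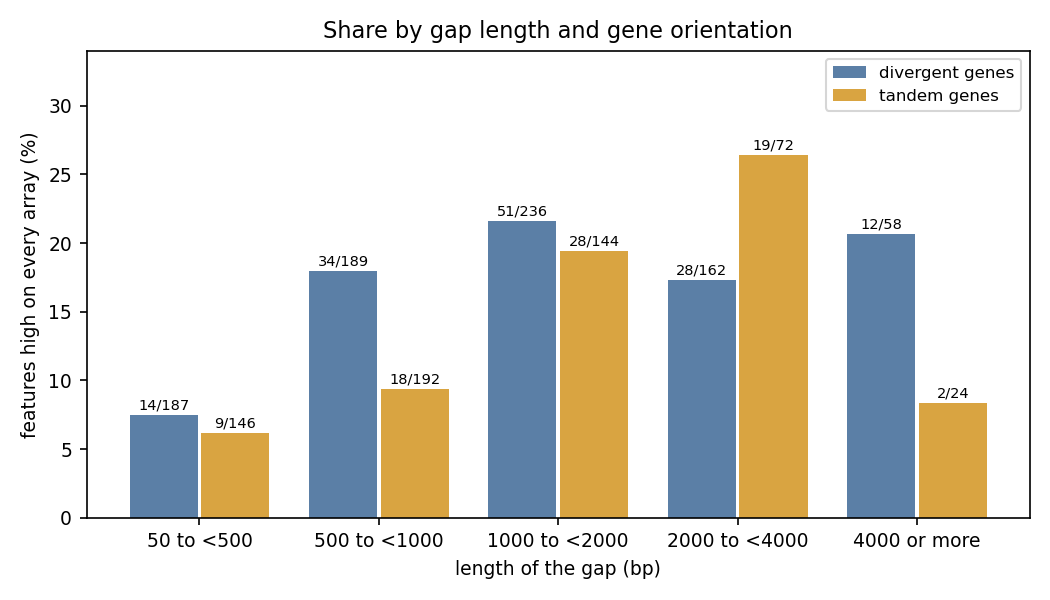
Share of measured intergenic features that were high on every array (vertical axis, in percent) by the length of the gap in bp (horizontal axis), for divergent and tandem neighbours, with the counts on the bars. The lowest shares, 7.49% and 6.16%, stand in gaps under 500 bp, and the highest, 26.4%, in tandem gaps from 2000 to under 4000 bp.

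Chromosomes I, II and III held 97 of 684, 77 of 445 and 41 of 281 measured features (14.2%, 17.3% and 14.6%). Within 100 kb of a chromosome end 15 of 60 features were members (25%), from 100 to 200 kb 19 of 67 (28.4%), and further inside 181 of 1283 (14.1%). Within 200 kb of an end lie the regions of dak2, ght3, shu1 and pdc101 on the left end of chromosome I, gto1 and SPAC922.04 on its right end, and abc3, frp1, icl1 and the gal genes on chromosome II. Gaps of high regions with at most 2 genes between them stood in pairs at 12 places, and no place had 3. These include tna1 with urg2 (chromosome I, 1829371 to 1832456), SPAC922.03 with SPAC922.04 (chromosome I, 5474549 to 5479977), where the SPAC922.04 region had 2.34, 1.51 and 2.44, and wwm3 with tfg2 (chromosome II, 197076 to 202535), where tfg2, a gene of transcription factor TFIIF, had 1.14, 1.72 and 1.48. The other pairs were ank1 with dal81, pvg1 with mug153, gpm1 with SPAC26F1.07, mug96 with SPBC1271.07c, gpd3 with rga6, sur2 with SPBC887.17, nrg1 with say1, mae2 with SPCC553.12c and phf1 with mrpl4.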

How the data were processed

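Each of the 3 arrays has a scanner table of spot intensities and a column in a value table. The intensities are integrated spot signals of channels A and B after local background subtraction. Per the labels, the authors obtained these intensities with TIGR Spotfinder. The deposited value tables hold log10-like values, normalized by the authors to the median with flagged values removed, per the labels. Their scale is not stated, and they were used only to read the direction. For the dyes, the software versions and the genome build nothing is given in the sources used here.

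Spots with both intensities above 0 and both flags C were kept, repeat spots were averaged as log2 ratios (IB over IA on the E120D slides, IA over IB on the F060D slide), and each array was centred on its median. No background correction or loess was added, since most probes of such an array may carry signal, and loess within arrays was an alternative. Percentile ranks were taken among the yeast features measured on that array. Names were matched to RefSeq ASM294v3 for 217 of the 238 regions, and gaps under 50 bp were not placed. Repeats of 1 strain are not stated to be separate cultures, so the SD covers only the spread between these arrays. Intensity tables give no read depth. The number of accepted spots limits the precision.

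The members, the gene lists and the tests were chosen with earlier results of these data known. The lists were edited once more after values were seen: hmt1 moved from the iron to the metal list, and nrg1 and thi2 left the factor list, since those names belong to a permease and a thiamine gene. The genes named are ranks 16 to 45 by mean, the highest and lowest of each list, regions with a high ORF, the widest differences within gaps, neighbouring pairs, edges and extreme spreads. Others were chosen after their values were seen. Some members are not reported here. Printed windows were chosen because they hold a match.

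The choice was tested on simulated data with spreads set by hand. Of 200 regions made higher among 1530, it recovered 61.5% at 2-fold, 99.5% at 4-fold and 100% at 8-fold, and it took 14 regions when none was changed. The spreads were not fitted to these arrays, so these values give no error rate for the regions chosen here. In the direction used here, these arrays correlated at r = 0.73 (replicates 1 and 2), 0.54 (1 and 3) and 0.40 (2 and 3). Their measured intergenic features had medians of 0.16, 0.47 and 0.29, above the array median. How far the simulated data share these 2 features was not tested, and the count of 14 is no measure for these arrays. Python 3.11.15, numpy 2.4.6, pandas 2.3.3 and statsmodels 0.14.6 were used.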

Additional observations from a re-analysis of the deposited data

How the results depend on the processing

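The count of 238 regions was within 1.5 times of itself with rank 85 (180) or rank 75 (296) as the threshold, with medians of repeat spots (238), with any flag (236), without dim spots (169), with loess (284) and with GC content and gap length regressed out (173). Ranks among intergenic features alone gave 125 of 1530 regions (8.17%), 47 of them on gene lists (glycolysis 6, stress response 9, phosphate and thiamine 1). With the same channel letters for replicate 3 there were 2 regions, 50% of them divergent, with 0 on gene lists and 0 with a high ORF, and the rank difference on the array left out turned to -6.93. Leaving out 1 array in turn gave 290 to 691 regions, 81 to 138 on gene lists, 13 to 82 with a high ORF, 61.2% to 62.5% divergent and a rank difference of 19.6 to 32.4, the last an alternative chosen after seeing the data. The count of regions with a high ORF was 11 among 238 regions, of which 146 had a measured ORF. It became 17 among 296 at rank 75, 26 among 284 with loess and 23 among 173 with GC content and length regressed out. Under these settings neither the regions with a measured ORF nor the share of all ORF features that were high was counted. No share of ORFs can therefore be read from these counts. Of 180 counts of single lists under the alternatives, 128 stayed within 1.5 times of the main count and 52 moved, 29 of these with the same letters or an array left out. The causes were not tested. Loess kept 184 of the 238 regions and the setting without dim spots 117. No paired analysis was possible because there is 1 group. With 3 arrays the exact test cannot go below p = 0.25.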
